A study of Mus musculus with 8 samples.

Results

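The dystrophin glycoprotein complex was examined in mouse gastrocnemius (GAS) muscle after prolonged MYTHO knockdown. Its 8 members were taken by gene symbol: *Dmd*, *Utrn*, *Dag1*, *Sgca*, *Sgcb*, *Sgcd*, *Sspn* and *Sntb1*. All 8 were found, each with 1 of the 22206 probe sets on the array, a probe set being the group of short probes that reads 1 gene. The muscles came from male C57/Bl6j mice. One leg received AAV sh-RNA MYTHO (MYTHO-KD), and the opposite leg received AAV sh-RNA scrmb (scramble), each expressed from a U6 promoter that is not restricted to a cell type. The AAVs were of serotype 1, which the paper describes as having tropism for skeletal muscle cells. Mice were about 10 weeks old at injection and 22 weeks old when muscles were taken, 3 months later. There were 4 muscles, hybridized to 4 Clariom S Mouse arrays, per group. AAV and a hairpin were thus present in both groups, and no uninjected muscle was used. The values are whole-muscle RNA, so fewer cells of a type and less RNA per cell cannot be told apart.

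The complex links the cytoskeleton of the muscle fiber to the basement membrane across the sarcolemma. Dystrophin binds actin inside the fiber and the tail of beta-dystroglycan at the membrane, while alpha-dystroglycan binds laminin outside through sugar chains. The sarcoglycans and sarcospan form a subcomplex in the membrane that steadies this link, and the syntrophins and dystrobrevins attach signaling proteins such as neuronal nitric oxide synthase. Loss of dystrophin causes Duchenne muscular dystrophy, and loss of single sarcoglycans causes limb-girdle muscular dystrophies.

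After 3 months of MYTHO-KD, no difference of the 8 members from scramble muscles was resolved after adjustment over all probe sets. The table analysed gives the authors' average and SD of each group on the log2 scale, where a step of 1 is a doubling of signal, and no value of a single muscle. The differences, MYTHO-KD minus scramble, ran from -0.39 to 0.46 on the log2 scale. Averages were higher in MYTHO-KD for *Utrn*, *Dag1*, *Dmd* and *Sgcd*, and lower for *Sgcb*, *Sgca*, *Sspn* and *Sntb1*. No member passed an adjusted p of 0.05 in limma's moderated test, in which each SD is drawn toward the common spread of all probe sets and p is adjusted over all of them by the Benjamini-Hochberg method. The adjusted p of the members lay between 0.343 and 0.853. At an unadjusted p under 0.05, *Sgca* was lower and no member was higher. The unadjusted p of *Sgcb*, *Utrn* and *Sspn* was 0.0585, 0.0610 and 0.0667 (limma). The 95% interval of the difference lay inside 2-fold in both directions for 8 of 8 members.

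These counts stand beside the whole array. An adjusted p under 0.05 was reached by 0.275% of all probe sets. An unadjusted p under 0.05 was reached by 5.52% in the lower direction and 6.48% in the higher direction, against 1 of 8 and 0 of 8 members. Of all probe sets, 0.86% passed that unadjusted threshold with a gain reaching 2-fold and 0.257% with a loss reaching 2-fold, and no member was in either class. The interval lay inside 2-fold for 89.2% of all probe sets, so a share of 8 of 8 is near the background. The median difference of the members was 0.05, beside -0.01 for all probe sets. The share of all probe sets with a larger absolute difference ran from 12.0% for *Utrn* to 40.7% for *Sgcd*, and was 64.0% for *Sntb1*.

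Stretches before start sites of the sarcoglycan and sarcospan genes are shown because *Sgca*, *Sgcb* and *Sspn* had lower averages in MYTHO-KD while *Sgcd* had not. Each run is the 250 bases before a start site in RefSeq (GRCm38.p6), written along the gene's own strand. The *Sgcd* run and most of the *Sspn* run lie inside the gene's span on the array, while those of *Sgca* and *Sgcb* precede it. Capitals mark 2 motifs searched on both strands, the E-box CANNTG and the MCAT motif CATTCC. Myogenic factors such as MyoD bind some E-boxes but not every CANNTG, and TEAD factors bind the MCAT motif. The windows are chr11:94976328-94976577 for *Sgca* (minus strand), chr5:73647738-73647987 for *Sgcb* (minus strand), chr6:145931623-145931872 for the first of the start sites listed for *Sspn* (plus strand), and chr11:47379326-47379575 for *Sgcd* (minus strand).
Sgca: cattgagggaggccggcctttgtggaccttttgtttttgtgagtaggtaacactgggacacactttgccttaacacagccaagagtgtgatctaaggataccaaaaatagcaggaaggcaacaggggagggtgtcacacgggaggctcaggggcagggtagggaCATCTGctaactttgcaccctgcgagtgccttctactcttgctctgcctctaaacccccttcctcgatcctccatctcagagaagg
Sgcb: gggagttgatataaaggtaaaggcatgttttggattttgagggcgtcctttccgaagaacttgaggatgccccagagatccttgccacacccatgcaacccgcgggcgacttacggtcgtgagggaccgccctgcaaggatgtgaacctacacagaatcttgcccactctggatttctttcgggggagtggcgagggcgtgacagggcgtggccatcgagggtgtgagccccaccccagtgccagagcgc
Sspn: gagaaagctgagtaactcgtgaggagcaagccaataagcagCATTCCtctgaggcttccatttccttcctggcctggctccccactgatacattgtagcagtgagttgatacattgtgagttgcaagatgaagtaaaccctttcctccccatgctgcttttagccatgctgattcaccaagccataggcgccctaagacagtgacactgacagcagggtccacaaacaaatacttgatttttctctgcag
Sgcd: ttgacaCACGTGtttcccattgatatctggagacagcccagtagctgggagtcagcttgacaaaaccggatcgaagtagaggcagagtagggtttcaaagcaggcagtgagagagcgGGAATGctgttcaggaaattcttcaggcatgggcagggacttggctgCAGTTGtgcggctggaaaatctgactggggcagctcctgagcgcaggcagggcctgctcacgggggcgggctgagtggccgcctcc

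The *Sgca* window held 1 E-box and no MCAT match, the *Sgcb* window held neither, this *Sspn* window held 1 MCAT match and no E-box, and the *Sgcd* window held 2 E-boxes and 1 MCAT match. The window of the other *Sspn* start site, not shown, held 1 E-box and 1 MCAT match. RefSeq windows were found for 7 of the 8 members, 10 windows in all, *Sntb1* being without one. An E-box stood in 7 of these 10 windows, which belong to 6 of the 7 genes, and in 66.2% of 32851 windows over the genome. An MCAT match stood in 3 of the 10, which belong to 2 of the 7 genes, and in 12.6% of all windows. Windows of 1 gene are not independent, and the pair for *Dag1* overlaps. A match is a stretch of letters and not a measured binding site.

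The targeted gene was measured first as a check of the labels. *D230025D16Rik*, the gene for MYTHO, averaged 7.71 (log2) in MYTHO-KD and 10.02 in scramble, which left 20.2% of the scramble signal (adjusted p = 0.0138, limma). Muscle fiber genes were bright in both groups: *Acta1*, the actin of the thin filament, and *Myh4*, the myosin of the fastest fibers, stood at the top of the scale at 19.93. The 8 members lay between 7.94 and 15.05 and below that ceiling, and all were marked as expressed in both groups by the authors' software.

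*Dmd* encodes dystrophin, the anchor between actin and dystroglycan, and lies on the X chromosome from 82814910 to 85206141. The authors' average was 10.49 (SD 0.26) in MYTHO-KD and 10.24 (SD 0.61) in scramble. The difference was 0.25 with a standard error of 0.275, and its interval ran from -0.35 to 0.85 (adjusted p = 0.789, limma). The ranges of 1 SD around the averages overlapped. The scramble muscles spread widely for this gene, with an SD above that of 96.4% of probe sets in that group, whereas the MYTHO-KD SD was near the middle of all probe sets. *Dmd* had the widest interval among the 8 members, with a standard error above that of the other 7.

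*Utrn* encodes utrophin, the relative of dystrophin that is concentrated at neuromuscular and myotendinous junctions and spreads along the sarcolemma in regenerating and dystrophin-deficient fibers. It lies on chromosome 10 from 12382188 to 12869365. The authors' average was 10.64 (SD 0.27) in MYTHO-KD and 10.18 (SD 0.40) in scramble. This was the widest gap among the 8 members, 0.46 with a standard error of 0.222, or 1.38-fold, and its interval of -0.02 to 0.94 included zero (adjusted p = 0.441, limma). A larger absolute difference was found in 12.0% of all probe sets. When differences were centred on the muscle fiber markers, *Utrn* too passed an unadjusted p under 0.05.

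*Dag1* encodes the precursor that is cut into alpha- and beta-dystroglycan, the laminin receptor at the core of the complex. It lies on chromosome 9 from 108204861 to 108263958. The authors' average was 14.85 (SD 0.31) in MYTHO-KD and 14.56 (SD 0.06) in scramble. The scramble muscles were close together, with a smaller SD in only 1.26% of probe sets. The difference of 0.29 had a standard error of 0.180 and an interval of -0.10 to 0.68 (adjusted p = 0.573, limma). The ranges of 1 SD overlapped, since the MYTHO-KD muscles varied more among themselves.

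**Figure D1:**
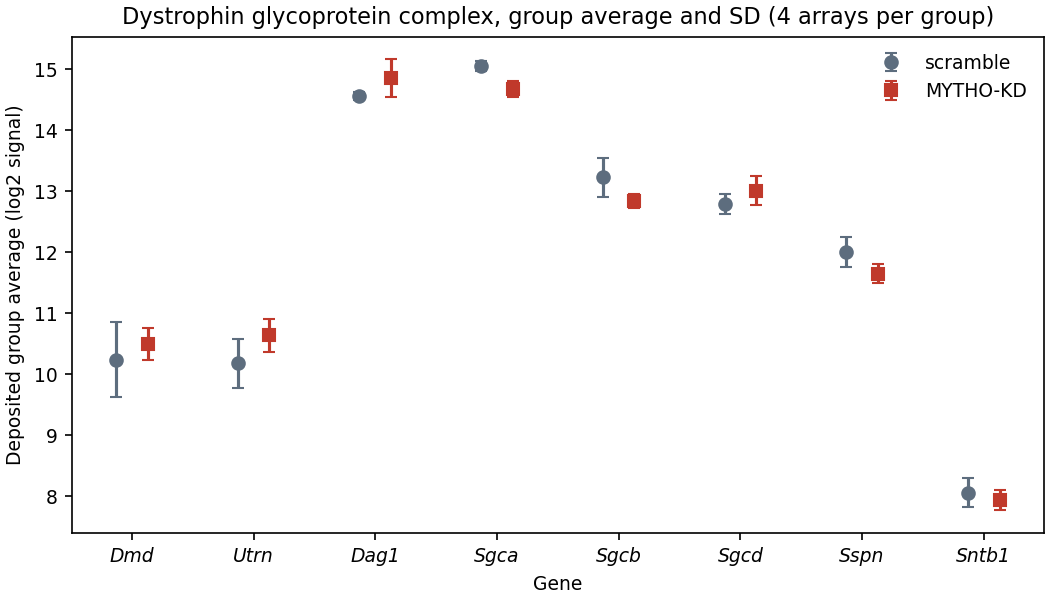
Deposited group averages of the 8 members on the log2 scale, scramble as grey circles and MYTHO-KD as red squares, with bars of 1 SD over 4 arrays per group. The bars of the groups are apart for *Sgca* and overlap for the other 7 genes; heights are not comparable between genes, since each gene has its own probes.

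The sarcoglycans are single-pass glycoproteins that assemble with each other. *Sgca*, on chromosome 11 from 94962777 to 94976327, encodes alpha-sarcoglycan, which is made in striated muscle. Its average was 14.67 (SD 0.13) in MYTHO-KD and 15.05 (SD 0.08) in scramble, so that 76.8% of the scramble signal was left. Both SDs were small, and *Sgca* was the 1 member whose ranges of 1 SD did not overlap. The difference of -0.38 (standard error 0.151) had an interval of -0.71 to -0.05, and it did not pass the adjustment over all probe sets (adjusted p = 0.343, limma). A larger absolute difference was found in 18.5% of all probe sets.

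*Sgcb*, on chromosome 5 from 73632749 to 73647731, encodes beta-sarcoglycan, which with delta-sarcoglycan forms the core on which the other sarcoglycans assemble. Its average was 12.84 (SD 0.12) in MYTHO-KD and 13.23 (SD 0.32) in scramble. The difference of -0.39 (standard error 0.186) was the lowest among the members, and its interval reached from -0.80 to 0.02 (adjusted p = 0.435, limma). Here the scramble muscles spread more than the MYTHO-KD muscles, the reverse of *Dag1*. *Sgcb* joined *Sgca* below an unadjusted p of 0.05 when the variance was modelled with a trend and robust fitting together.

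*Sgcd*, on chromosome 11 from 46896253 to 47988969, encodes delta-sarcoglycan, the partner of beta-sarcoglycan in that core. Its average was 13.01 (SD 0.24) in MYTHO-KD and 12.79 (SD 0.17) in scramble, a difference of 0.22 (standard error 0.176) with an interval of -0.16 to 0.60 (adjusted p = 0.686, limma). The differences of the core partners *Sgcb* and *Sgcd* thus lay on opposite sides of zero, while neither was resolved from zero after adjustment.

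*Sspn*, on chromosome 6 from 145931641 to 145965225, encodes sarcospan, a small membrane protein that binds the sarcoglycans. Its average was 11.65 (SD 0.15) in MYTHO-KD and 12.00 (SD 0.24) in scramble. The difference of -0.35 (standard error 0.173) had an interval of -0.73 to 0.03 (adjusted p = 0.453, limma). Without moderation of the variance, *Sspn* too was below an unadjusted p of 0.05. Of the 4 genes of the sarcoglycan and sarcospan subcomplex among the members, 3 had lower averages in MYTHO-KD, by similar sizes, and *Sgcd* had the higher one. Their common direction was not tested.

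*Sntb1*, on chromosome 15 from 55638843 to 55906949, encodes beta1-syntrophin, a cytoplasmic adaptor. Its average was 7.94 (SD 0.17) in MYTHO-KD and 8.06 (SD 0.24) in scramble, a difference of -0.12 (standard error 0.176) with an interval of -0.50 to 0.26 (adjusted p = 0.853, limma). It was the member nearest to zero, and 64.0% of all probe sets had a larger absolute difference.

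**Figure D2:**
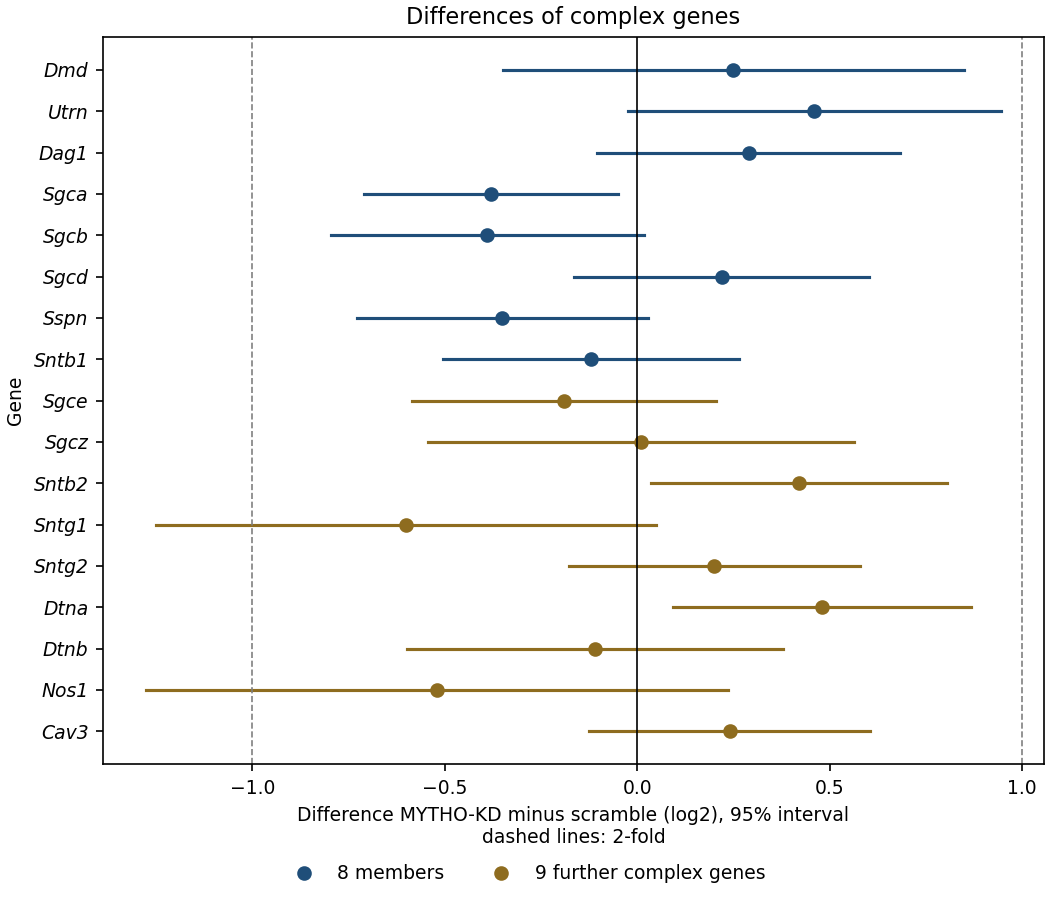
Difference MYTHO-KD minus scramble on the log2 scale (horizontal axis) with its 95% interval from limma's moderated variance, for the 8 members in blue and 9 further genes of the complex in brown; dashed lines mark 2-fold. The intervals of the 8 members lie between the dashed lines, and those of *Sntg1* and *Nos1* cross one of them.

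The remaining genes of the complex were read from a list of 11, all found. Their averages were higher in MYTHO-KD for 6 and lower for 5, with a median difference of 0.01, and 3 of 11 were higher at an unadjusted p under 0.05 while none was lower, beside 6.48% and 5.52% of all probe sets. None passed an adjusted p of 0.05. Among other sarcoglycans, *Sgce*, the epsilon form found in many tissues, differed by -0.19 (7.41 against 7.60), and *Sgcz*, the zeta form, by 0.01 (8.08 against 8.07). *Dtna* and *Sntb2*, both for cytoplasmic adaptors, were among the genes at an unadjusted p under 0.05. *Dtna*, which encodes alpha-dystrobrevin, averaged 15.68 (SD 0.29) in MYTHO-KD and 15.20 (SD 0.09) in scramble, a difference of 0.48 (standard error 0.178, adjusted p = 0.314, limma). *Sntb2*, for beta2-syntrophin, averaged 6.87 and 6.45, a difference of 0.42 (standard error 0.176, adjusted p = 0.373, limma).

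*Nos1*, for neuronal nitric oxide synthase, which is held at the sarcolemma by the complex, averaged 10.23 (SD 0.80) in MYTHO-KD and 10.75 (SD 0.39) in scramble, and its difference of -0.52 had an interval of -1.28 to 0.24. *Cav3*, for caveolin-3 of muscle caveolae, differed by 0.24 and *Dtnb*, for beta-dystrobrevin, by -0.11. The gamma-syntrophins gave 0.20 for *Sntg2* and -0.60 for *Sntg1*, the latter with SDs of 0.53 and 0.51. Both had larger absolute differences than *Sntb1*, though differences between these genes were not tested.

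Outside the cell, genes of the basement membrane gave other values. The list holds laminins, agrin and perlecan, which bind alpha-dystroglycan, beside nidogens and other proteoglycans. Among 13 basement membrane genes, 11 had higher averages in MYTHO-KD, with a median difference of 0.76, and 7 were higher at an unadjusted p under 0.05. Over the whole array, 10416 of 22206 probe sets had higher averages, and 6.48% were higher at that p. *Lama2*, the laminin alpha2 chain of the muscle basement membrane and the main ligand of alpha-dystroglycan there, averaged 10.94 (SD 0.20) in MYTHO-KD and 10.07 (SD 0.47) in scramble, a difference of 0.87 (standard error 0.230, adjusted p = 0.153, limma). The chains *Lamb1* (0.88) and *Lamc1* (0.76), perlecan *Hspg2* (0.94) and nidogen *Nid1* (0.83) were in the same range, while *Lamb2*, the beta chain of adult muscle laminin, was at 0.41 and agrin *Agrn* at 0.20. The laminin alpha chains *Lama4*, *Lama5* and *Lama1* were at 0.28, -0.03 and -0.11. *Bgn*, for the proteoglycan biglycan, averaged 12.84 (SD 0.71) and 10.90 (SD 0.14) and rose by 1.94 (standard error 0.294, adjusted p = 0.0290, limma), the only gene of the list past the adjustment. This call was lost without moderation of the variance (adjusted p = 0.210) and with unequal variances (adjusted p = 0.452, both from the same table). *Prelp*, a small leucine-rich proteoglycan that binds perlecan, was at 1.66 (adjusted p = 0.149, limma). *Bgn* and *Prelp* were also the only genes of the list at 2-fold. Whether the receptor gene *Dag1*, at 0.29, differed from these basement membrane genes was not tested.

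**Figure D3:**
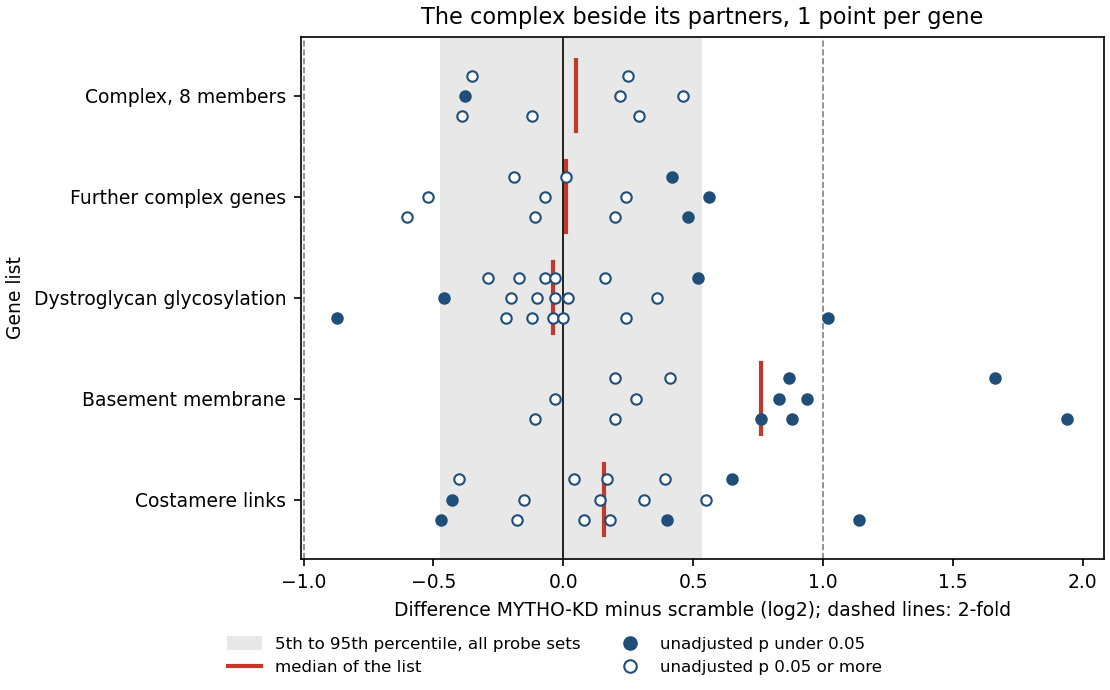
Differences MYTHO-KD minus scramble on the log2 scale, 1 point per gene, for the 8 members, 11 further complex genes, 19 dystroglycan glycosylation genes, 13 basement membrane genes and 16 costamere genes; filled points have an unadjusted p under 0.05, red bars are list medians, and the grey band spans -0.47 to 0.53, the 5th to 95th percentile of all probe sets. All 8 members lie inside the band, and 7 basement membrane genes lie to its right.

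Dystroglycan binds laminin only once its mannose-linked sugar chain has been built. Of 19 genes for this chain and its sugar donors, 6 had higher and 12 lower averages in MYTHO-KD, with a median difference of -0.04. Among all 22206 probe sets, 10416 had higher and 11412 lower averages. *Large*, for the enzyme that extends the laminin-binding repeat of the chain, averaged 11.29 (SD 0.39) in MYTHO-KD and 10.27 (SD 0.31) in scramble, a difference of 1.02 (standard error 0.227) that reached 2-fold with an unadjusted p under 0.05 and missed the adjustment (adjusted p = 0.0945, limma). *Dpm2*, a subunit of dolichol-phosphate mannose synthase, was at 0.52, and *B3galnt2*, which adds a sugar within the core of the chain, at -0.46, both with an unadjusted p under 0.05. The probe set that names *Dpm1* also names *Adnp*, so its difference of -0.87 (adjusted p = 0.0922, limma) cannot be given to either gene. The starting enzymes *Pomt1* (-0.20) and *Pomt2* (-0.10) lay near zero.

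Inside the fiber, 11 of 16 costamere genes, which tie the complex or the parallel integrin complex to the cytoskeleton, had higher averages in MYTHO-KD, with a median of 0.155. The whole array had 10416 of 22206 probe sets higher and a median of -0.01. Filamin C, *Flnc*, which binds sarcoglycans, averaged 10.94 (SD 0.38) and 9.80 (SD 0.38), a difference of 1.14 (standard error 0.238, adjusted p = 0.0776, limma). Cytoplasmic gamma-actin *Actg1*, whose probe set also names the microRNA gene *Mir6935*, was at 0.65 and integrin beta1 *Itgb1* at 0.40, both with an unadjusted p under 0.05. Integrin alpha7, *Itga7*, the laminin receptor that works in parallel with the complex, was at 0.55 (interval -0.08 to 1.18). Ankyrin-G, *Ank3*, which helps to hold dystrophin and beta-dystroglycan at costameres, was at -0.47 and keratin 19, *Krt19*, at -0.43, both with an unadjusted p under 0.05, and *Krt19* was marked as not expressed in either group. Plectin *Plec* (0.17), desmin *Des* (0.14) and vinculin *Vcl* (0.08) lay near zero. Over these 4 lists of partner genes, 4 of 59 genes were 2-fold higher with an unadjusted p under 0.05 and none was 2-fold lower. Of all probe sets, 0.86% and 0.257% were in these classes.

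Averages of markers of other cells of muscle differed between the groups beside these results. Over the whole array, 10416 of 22206 probe sets had higher averages in MYTHO-KD, with a median difference of -0.01. Of 10 macrophage markers 9 had higher averages in MYTHO-KD (median difference 0.695, with median averages of 7.69 and 6.72), and all 10 fibroblast markers did (median 0.77, with median averages of 10.44 and 9.30). All 9 endothelial markers were higher in average (median 0.34), as were 5 of 7 smooth muscle markers (median 0.14), 5 of 7 markers of regenerating fibers (median 0.18) and 3 of 7 Schwann cell markers (median -0.17). All these markers were flagged as expressed in both groups. The 12 muscle fiber markers had a median difference of -0.04, though 8 of them stood near the top of the scale, above 19, where a difference can be compressed. Utrophin, dystroglycan and several sarcoglycans are also made by vessel, nerve or stromal cells, and the part of these cells in the members' values was not tested. Centring the differences on the muscle fiber markers moved each member by 0.04. The member nearest to zero, *Sntb1*, was at -0.12, so this step could not turn a direction.

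**Figure D4:**
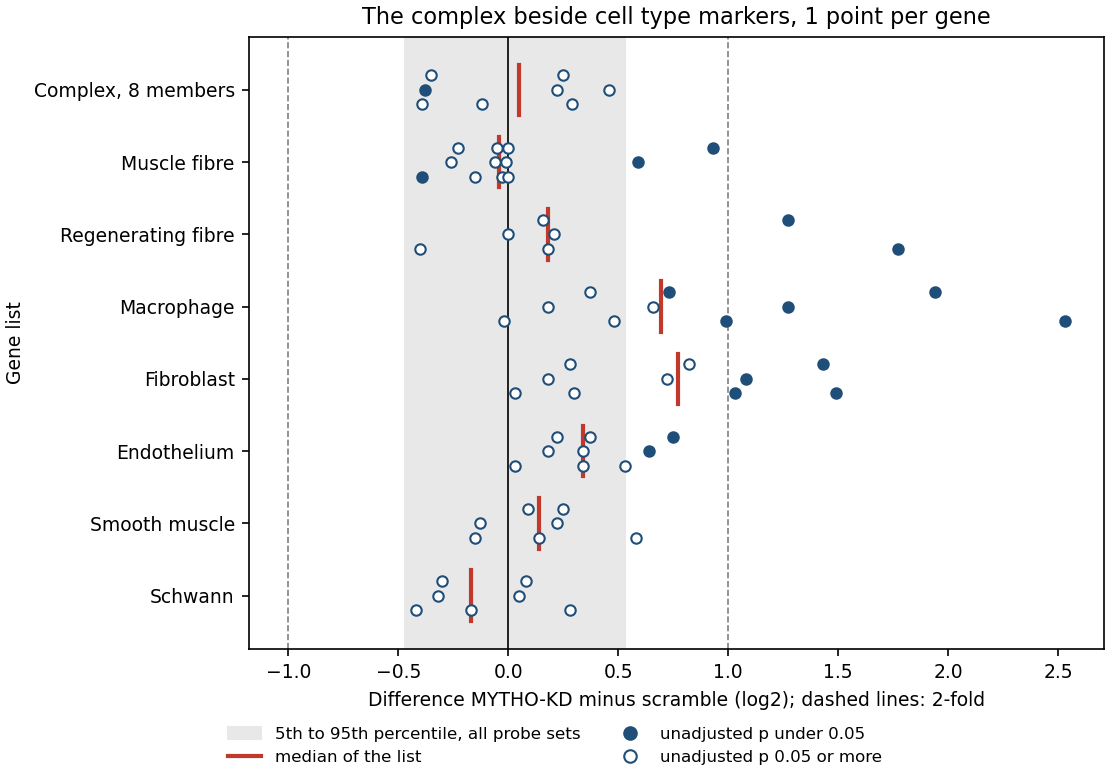
Differences MYTHO-KD minus scramble on the log2 scale, 1 point per gene, for the 8 members and for markers of muscle fibers, regenerating fibers, macrophages, fibroblasts, endothelium, smooth muscle and Schwann cells; filled points have an unadjusted p under 0.05, red bars are list medians and the grey band is the 5th to 95th percentile of all probe sets. The band is for single probe sets and not for medians, which are 0.695 for macrophages, 0.77 for fibroblasts, 0.05 for the members and -0.04 for muscle fibers, where 8 of 12 genes stand near the top of the scale.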

How the data were processed

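Total RNA of GAS muscles was hybridized to Clariom S Mouse arrays. The authors analyzed the arrays in the Transcriptome Analysis Console with SST-RMA normalization per the study's methods (the labels name Affymetrix Expression Console and RMA) and deposited 1 table of 28 columns, annotated on mm10. Group averages and SDs on the log2 scale and the flags for expression were used as deposited. The kind of average is not given in the sources used here. The deposited fold changes, p-values and false discovery rates of the authors' own comparison were not used. The table holds 0 columns of single arrays, so each group has 1 value per gene.

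From these averages and SDs a moderated test was run in R 4.3.3 (limma 3.58.1), with 6 residual degrees of freedom and squeezeVar (prior SD 0.284, prior degrees of freedom 5.85), over all 22206 probe sets, two-sided, with Benjamini-Hochberg adjustment. Intervals are unadjusted 95% intervals. If the averages are not plain means, they may be too narrow. The fit was tested on simulated data of independent arrays and plain means. That test does not cover legs of the same animal or another kind of average. The labels do not say whether each array is a separate mouse. p-values therefore measure only the spread between these samples, and the legs of one animal could not be matched. Arrays have no depth, and their number limits the precision.

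Named genes are the members, further complex genes (some are counted but not reported by name here), *D230025D16Rik* and, per list, genes with an unadjusted p under 0.05 and the 3 largest differences. Other genes named were chosen after their values were seen. The 11 lists (4 of partner genes, 7 of cell markers) and the members were chosen with earlier results of these data known. Each gene has 1 probe set. Alternatives were other variance models, a filter on dim probe sets (under 5.715, the 30th percentile), 1 probe set per symbol, 2 centrings and a 1.5-fold threshold.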

Additional observations from a re-analysis of the deposited data

How the results depend on the processing

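No paired analysis was possible because the table analysed holds 1 average per group and no single arrays; for the same reason no replicate was left out in turn. No member has a second probe set, so that alternative was not run. In the 7 other settings run for the members, the lowest adjusted p of any member was 0.221 (limma, trend with robust fitting). Only the 2 centrings moved the differences, by taking off medians of -0.01 and -0.04. Both are smaller in size than any member difference, so no direction could turn. All 8 intervals stayed inside 2-fold in 5 of the settings, while without moderation and with unequal variances those of *Dmd* and *Utrn* did not (up to 1.06 and 1.17, log2), which leaves 6. Members lower at an unadjusted p under 0.05 numbered 2 without moderation (*Sgca* and *Sspn*) and 2 with a trend and robust fitting (*Sgca* and *Sgcb*), against 1; 1 member was higher when centred on the muscle fiber markers (*Utrn*), against 0. Of the 59 partner genes, the number at an adjusted p under 0.05 was 0 without moderation and 0 with unequal variances, where *Bgn* was at 0.210 and 0.452, and 4 with the trend and robust fitting together (*Bgn*, *Flnc*, *Large* and the probe set of *Adnp* and *Dpm1*), against 1. At 1.5-fold with an unadjusted p under 0.05, 10 partner genes were higher and 1 lower. The share of all probe sets at 1.5-fold was not computed, so these counts have no background. At an unadjusted p under 0.05, higher glycosylation genes numbered 1 without moderation, with unequal variances or without dim probe sets, against 2. They numbered 3 when centred on the muscle fiber markers. Under that centring 8 basement membrane genes were higher at that p, against 7. Further complex genes that were higher at that p numbered 2 without moderation, with unequal variances or without dim probe sets, against 3. Lower costamere genes at that p numbered 1 without moderation, with unequal variances, without dim probe sets and under both centrings, against 2. The share of all probe sets called was not computed for any of these settings, so none of these counts has a background. *Krt19*, at a mean level of 3.955, was left out by the filter on dim probe sets. The cause of the other moves was not tested.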

Other observations

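Among the cell markers, *Cd68*, a lysosomal protein of macrophages, rose most, from 6.90 (SD 0.20) in scramble to 9.43 (SD 0.88) in MYTHO-KD (adjusted p = 0.0182, limma), and *Lyz2*, the lysozyme of myeloid cells, rose from 9.17 to 11.11 (adjusted p = 0.0277, limma). *Lum*, for the matrix proteoglycan lumican, rose from 10.36 to 11.85 (adjusted p = 0.0443, limma). The other macrophage genes with an unadjusted p under 0.05 were *C1qb* (1.27), *Csf1r* (0.99) and *C1qc* (0.73), while *Ptprc*, shared by all leukocytes, was at -0.02. The other fibroblast genes were *Col3a1* (1.43), *Mfap5* (1.08) and *Fbn1* (1.03), and the endothelial ones *Kdr* (0.75) and *Eng* (0.64), with *Tek* at 0.53.

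Of the muscle fiber markers, *Mb*, for myoglobin, was at 0.93 (18.82 to 19.75, adjusted p = 0.0754, limma), *Myh1*, the myosin of type IIX fibers, at 0.59 and *Ryr1*, the calcium release channel, at -0.39. Of the genes of regenerating fibers, the fusion gene *Mymk*, listed as *Tmem8c*, was at 1.77 (adjusted p = 0.0749, limma), embryonic myosin *Myh3* at 1.27 with an SD of 1.28 in MYTHO-KD, and *Myod1* at -0.40. *Myh8*, perinatal myosin, stood at the top of the scale in both groups. Its sequence is close to that of the adult fast myosins, and whether its probe set also reads those was not tested. Smooth muscle and Schwann lists had no gene at an unadjusted p under 0.05, and their largest differences were those of *Mylk* (0.58), *Myh11* (0.25), *Cnn1* (0.22), *Mbp* (-0.42), *Prx* (-0.32) and *Sox10* (-0.30).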
